A study of Mus musculus with 46 samples.

Results

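The 7 genes described here encode the proteins by which microglia, the resident macrophages of the brain, sense and clear extracellular nucleotides. They are P2ry12 and P2ry13, receptors for ADP, P2ry6, a receptor for UDP, P2rx4 and P2rx7, ion channels opened by ATP, Adora3, the A3 receptor for adenosine, and Entpd1 (CD39), a surface enzyme that degrades ATP and ADP. The genes were chosen by name, with earlier results of these data known. All 7 were found among the 20999 genes of the deposited tables, and all 7 passed the filter on low counts that left 12230 genes for testing.

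Damaged or active cells release ATP, which surface enzymes convert stepwise to ADP, AMP and adenosine, and each step has its own receptors. In microglia, P2Y12 steers process movement towards ATP and ADP, P2Y6 is linked to phagocytosis, and P2X4 and P2X7 admit calcium, P2X7 also leading to inflammasome activation. A3 receptors act together with P2Y12 on process extension, and CD39 sets how much ATP and ADP remains for all of these receptors.

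RNA was measured in sorted microglia of male C57BL/6 mice, in 5 groups of 2 libraries. Adult cells came from untreated wild-type mice of 90 days, and their cell type label is Ki67-negative although these mice carried no reporter. Cells of postnatal day 8 (PND8) came from untreated Ki67-rfp mice, whose red fluorescent reporter follows Ki67, a protein of cycling cells, and were sorted into Ki67-negative and Ki67-positive. Repopulating cells came from Ki67-rfp mice of 75 days that had eaten PLX5622, an inhibitor of the CSF1 receptor that depletes microglia, for 17 days from day 55 and then recovered for 3 days. They were sorted in the same way. H3K27ac, an acetylation of histone H3 found at active regulatory regions, was profiled in 6 groups of 2 libraries, all from wild-type mice whose cells were fixed and stained for Ki67 with an antibody. These groups were adult (60 and 65 days), both Ki67 classes at PND8, both Ki67 classes of mice of 90 days fed cuprizone, a toxin of myelin-forming cells, for 4 weeks, and Ki67-positive repopulating cells of mice of 90 days given PLX5622 from day 70. H3K4me3 was profiled in 2 libraries of untreated wild-type adults of 75 days, and Rpb2 in adults of 60 and 65 days and in 1 library of wild-type PND8 Ki67-positive cells. ATAC-seq had 1 library each of wild-type adults of 80 days, of PND8 Ki67-positive cells and of Ki67-positive repopulating cells of 75 days on the PLX5622 schedule of the RNA groups. The titles of the last 2 name the reporter, while their genotype label is wild type. Adult differs from the other RNA groups in reporter genotype as well as in age or treatment, which cannot be told apart.

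Total counts ran from 6865903 to 10287876 per RNA library, and 3 counts, the limit that a count of 0 allows, were worth 0.275 to 0.457 CPM (counts scaled to a common library size with TMM factors). Of the microglia markers, 9 (Tmem119, Cx3cr1, Sall1, Fcrls, Siglech, Csf1r, Gpr34, Olfml3, Aif1) were detected in every library. They summed to 7701 and 7813 CPM in adult, 5856 to 7147 at PND8 and 6321 to 7331 in repopulating cells, so all 8 other libraries lay below adult. Tmem119 stood at 775 and 793 CPM in adult, 487 to 551 at PND8 and 694 to 855 in repopulating cells, and Olfml3 at 569 and 592, 347 to 424.5 and 494 to 617.6 (both named after their values were seen). The 9 markers did not all follow this pattern. Fcrls had a mean of 694.5 CPM in adult, 663.2 and 633.3 in Ki67-negative and Ki67-positive cells of PND8 and 314.5 and 307.5 in those of repopulation. Mki67, the gene of Ki67, was at most 13.4 CPM in adult, 242 to 463 in the Ki67-negative groups and 919 to 1107 in the Ki67-positive groups. Summed border macrophage markers (Mrc1, Lyve1, Cd163, F13a1, Pf4, Ms4a7) lay at 602 to 853 CPM at PND8, mostly Mrc1, against 63.5 to 77.4 in adult and at most 42.9 in repopulating cells. Monocyte and neutrophil markers (6 genes) were at 61.5 and 211 CPM in adult and at 3.48 to 9.26 elsewhere. Erythroid markers were at 23.3 to 76.9 CPM at PND8 and at 0.416 to 7.45 elsewhere. Astrocyte markers (6 genes, mostly Slc1a3) summed to 238 and 248 CPM in adult and 409 to 566 in repopulating cells. The PND8 replicates differed widely, at 95.1 and 59.8 CPM in replicate 1 against 429 and 374 in replicate 2, in Ki67-negative and Ki67-positive cells. Lymphocyte markers summed to 0.116 to 1.21 CPM, with Cd3d at 0 in all 10 libraries. Of the platelet markers, a type that also expresses P2ry12, Gp6 was at 0 in all 10 and the list summed to 19.7 to 54.2 CPM, mostly Gp9. The part of these markers in the results below was not tested. In such bulk samples, fewer expressing cells and less RNA per cell cannot be told apart.

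The start sites are shown first, because H3K27ac and H3K4me3 regions lie within 1 kb of all 7 of them in the results below. The lines give the 250 bases before the start site of 5 members, 5′ to 3′ on the gene's strand, from RefSeq on GRCm38.p6, the assembly that mm10 names. They are the pair of ADP receptors and the 3 genes that were lower at PND8 than in repopulating cells. Capitals mark matches to any of 7 motifs searched on both strands.
P2ry12, chr3:59262986-59263235, minus strand: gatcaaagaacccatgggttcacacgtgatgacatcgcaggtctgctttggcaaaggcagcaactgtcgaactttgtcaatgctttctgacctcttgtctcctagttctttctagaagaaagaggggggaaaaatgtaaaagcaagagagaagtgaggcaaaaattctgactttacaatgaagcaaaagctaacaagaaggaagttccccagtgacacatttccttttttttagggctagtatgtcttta
P2ry13, chr3:59210883-59211132, minus strand: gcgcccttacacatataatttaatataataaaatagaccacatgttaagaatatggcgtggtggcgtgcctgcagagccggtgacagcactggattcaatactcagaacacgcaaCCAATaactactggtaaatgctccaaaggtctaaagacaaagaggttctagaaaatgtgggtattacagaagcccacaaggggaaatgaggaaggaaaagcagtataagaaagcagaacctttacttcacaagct
P2rx4, chr5:122707294-122707543, plus strand: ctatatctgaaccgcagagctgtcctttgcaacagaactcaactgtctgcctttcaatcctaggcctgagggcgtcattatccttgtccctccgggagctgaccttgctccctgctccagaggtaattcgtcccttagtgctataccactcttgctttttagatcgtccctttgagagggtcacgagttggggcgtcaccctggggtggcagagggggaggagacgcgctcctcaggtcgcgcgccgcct
P2rx7, chr5:122643677-122643926, plus strand: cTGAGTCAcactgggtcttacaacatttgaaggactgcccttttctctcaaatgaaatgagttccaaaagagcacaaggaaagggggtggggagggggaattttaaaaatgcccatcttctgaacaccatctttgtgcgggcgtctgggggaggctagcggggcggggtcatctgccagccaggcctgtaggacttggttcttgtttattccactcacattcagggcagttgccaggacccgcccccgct
Adora3, chr3:105904171-105904420, plus strand: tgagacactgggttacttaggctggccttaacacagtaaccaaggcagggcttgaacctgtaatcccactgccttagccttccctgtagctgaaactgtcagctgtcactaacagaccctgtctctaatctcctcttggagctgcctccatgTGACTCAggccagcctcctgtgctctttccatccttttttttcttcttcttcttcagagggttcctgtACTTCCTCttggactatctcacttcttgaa

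The motifs were GAGGAAGT (PU.1 type), TGANTCA (AP-1 type), TGACGTCA (CRE), TTTCCCGC (E2F type), GAAANNGAA (interferon type), CCAAT and TATAAA. Of all 32851 RefSeq windows of this length, 2.44% held GAGGAAGT, 6.75% TGANTCA, 1.55% TGACGTCA, 0.895% TTTCCCGC, 7.13% GAAANNGAA, 33.8% CCAAT and 12.4% TATAAA. Adora3 had TGANTCA 98 bases before its start site and GAGGAAGT, on the opposite strand, 30 bases before it. P2rx7 had TGANTCA at the far edge of the window. P2ry13 had CCAAT 135 bases before its start site, and Entpd1 had it 105 bases before the start site used in the count table. P2ry12 and P2rx4 had none of the 7. A match describes letters only, not a bound site. P2ry6 has no entry in that table.

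P2ry12 spans chr3:59216271-59262985 and P2ry13 chr3:59207894-59210882, both on the minus strand, with start sites 52103 bases apart. Both lie inside Med12l, which runs on the opposite strand. P2ry6 spans chr7:100937634-100964366 on the minus strand. P2rx7 (chr5:122643927-122684289) and P2rx4 (chr5:122707544-122729738) follow each other on the plus strand. Adora3 (chr3:105904421-105908928, plus strand) lies wholly within the span of Tmigd3 on the same strand, so reads of the 2 genes cannot be fully told apart and Adora3 values are uncertain. Entpd1 spans chr19:40659770-40741602 on the plus strand. Positions are those of the count table's transcripts on mm10.

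Per length, P2ry12 had the highest level of the 7 in every library. The deposited TPM values (scaled for library size and transcript length) of adult cells were 603 and 597 for P2ry12, 440.5 and 429 for P2ry13, 269.9 and 273 for Entpd1, and 210.0 and 219.7 for P2ry6. P2rx7 followed with 146 and 149, Adora3 with 115 and 119, and P2rx4 with 70.5 and 70.1. In adult no neighbours in this order overlapped. Entpd1 and P2ry6 changed places elsewhere: TPM of Entpd1 was 166 to 203 at PND8 and 169 to 192 in repopulating cells, while P2ry6 stood at 246 to 262 and 229 to 254. The 2 libraries of PND8 Ki67-negative cells were the least alike for P2ry12, at 606 and 468 TPM. For P2ry12 and P2rx7 the TPM table used another transcript than the count table, of 2356 against 2550 bases and of 2537 against 4905 bases.

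**Figure D1:**
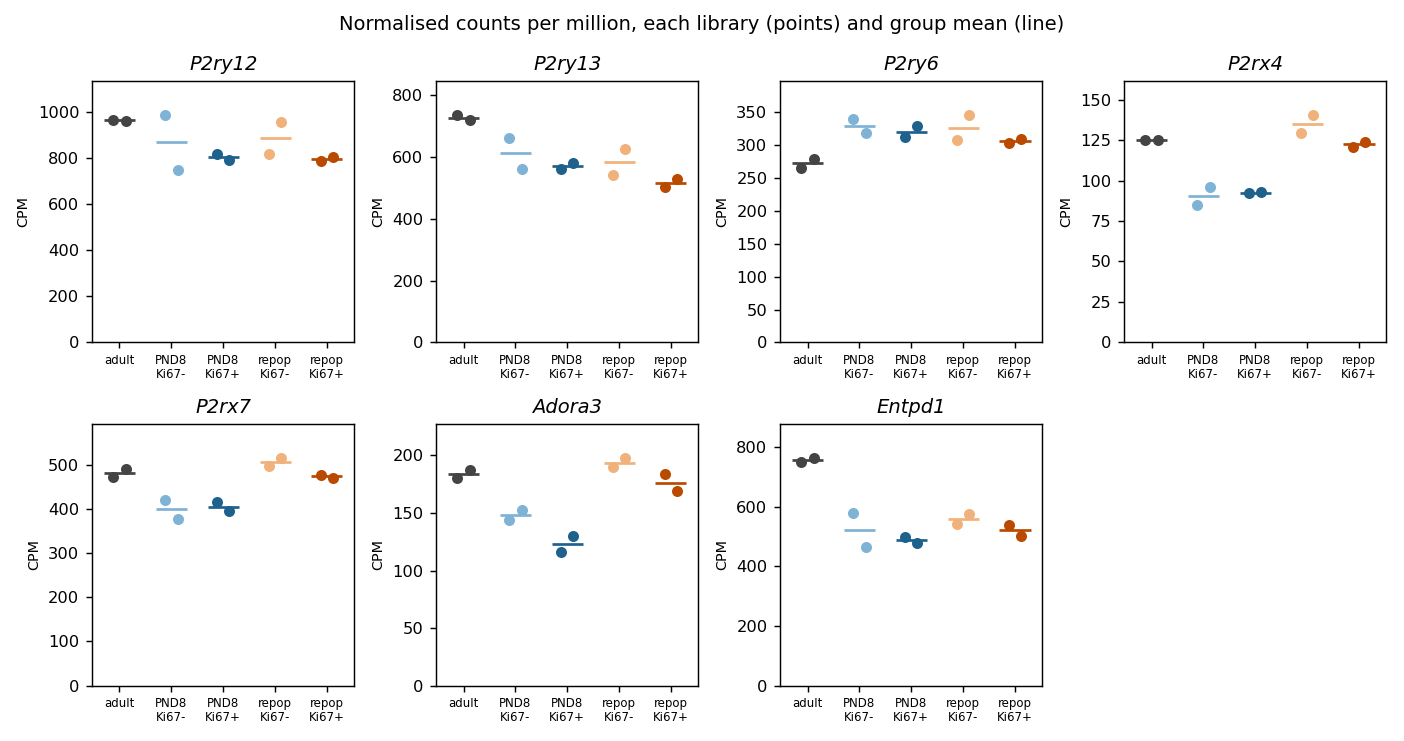
Normalised CPM (vertical axes, from 0) of the 7 genes in each of the 10 RNA libraries (points), with the mean of each group of 2 (lines); repop, repopulating. P2rx4, P2rx7 and Adora3 are low at PND8 only, whereas both Entpd1 and P2ry13 lie below adult in all 4 other groups and P2ry6 above.

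Whether Ki67-positive cells differ from Ki67-negative cells of the same context was asked first. Both classes held Mki67 RNA well above adult, as given above. None of the 7 genes passed edgeR's quasi-likelihood test (Benjamini-Hochberg adjusted p under 0.05 over all genes) between Ki67-positive and Ki67-negative cells, at PND8 or in repopulating cells. Of all genes tested, 2.75% were called higher and 3.15% lower in Ki67-positive cells at PND8, and 1.87% higher and 0.867% lower in repopulating cells. At an unadjusted p under 0.05, 1 member passed at PND8 and 0 in repopulating cells, against 19.7% and 15.8% of all genes. DESeq2 also called 0 of the 7 in both. These fits did not pair same-numbered libraries, and with replicate number as a term edgeR called Adora3 at PND8.

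Adora3 came closest. It stood at 144 and 153 CPM in Ki67-negative and at 116 and 130 CPM in Ki67-positive cells of PND8, which do not overlap, a log2 difference of -0.27 (95% interval -0.46 to -0.08, edgeR adjusted p = 0.0894). Each of the 2 same-numbered pairs, which share a numeric code in the column headers that the labels do not explain, had the lower value in Ki67-positive cells, by -0.31 and -0.24, and with that code as a batch term the gene was called (edgeR adjusted p = 0.0317). The other 6 genes overlapped between these groups (26.3% of all genes were lower and 19.1% higher without overlap), with log2 differences from -0.11 (P2ry12) to 0.03 (P2rx4). In repopulating cells all 7 differences were below 0, from -0.18 (P2ry13) to -0.09 (P2ry6), and none passed. All but P2ry6 were lower without overlap there, 6 of the 7, where 23.9% of all genes were lower and 23.9% higher without overlap. In the same-numbered repopulating pairs the differences of all 7 were below 0, from -0.25 (P2ry12, replicate 2) to -0.01 (Entpd1, replicate 1). The interval for P2ry12 in repopulating cells ran from -0.41 to 0.09. Whether the Ki67 difference depended on context was tested by the interaction, where 0 of the 7 and 0% of all genes in either direction were called by edgeR. At an unadjusted p under 0.05 the interaction held 613 genes (5.01%) and no member, while DESeq2 called 3 genes and no member.

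Against adult, most of the 7 were lower at PND8, fewer in repopulating cells, and every called difference was modest, between 0.645-fold and 1.21-fold. In PND8 Ki67-positive cells edgeR called 5 members lower and 1 higher, where 24.3% of all genes were lower and 25.1% higher. In PND8 Ki67-negative cells it called the same 5 lower and the same 1 higher, where 21.4% were lower and 25.4% higher. In repopulating Ki67-positive cells 2 were lower and 0 higher (all genes: 21% lower and 23.9% higher), and in repopulating Ki67-negative cells 2 were lower and 1 higher (all genes: 17.6% lower and 21.5% higher). The median log2 change of the 7 was -0.35 and -0.27 in the Ki67-positive and Ki67-negative cells of PND8 and -0.06 and 0.07 in those of repopulation. Over all genes these medians lay between -0.01 and 0.03. The 4 comparisons share the adult libraries, which also held the neutrophil markers given above. The summed microglia markers, lower in all 8 other libraries, and Tmem119 and Olfml3, low at PND8, moved with these results as well, and their part was not tested. Without adult replicate 1 the 6 calls of PND8 Ki67-positive cells fell to 3, as they did without PND8 Ki67-positive replicate 1. The 6 calls of PND8 Ki67-negative cells fell to 3 without adult replicate 1 and to 2 without adult replicate 2. The 3 calls of repopulating Ki67-negative cells fell to 1 without either adult library. A group left with 1 library is assumed to vary like the others. No other group shares the header code of the adult libraries, so that code and the adult group cannot be told apart.

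**Figure D2:**
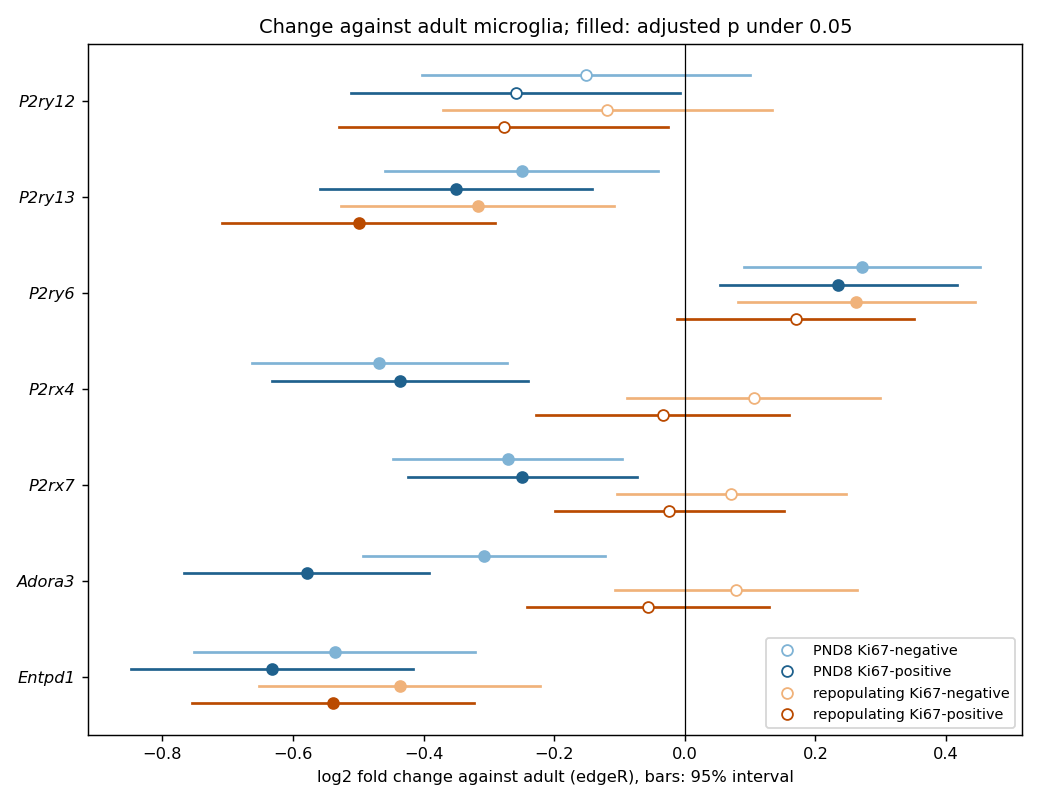
Log2 fold change of each gene against adult (horizontal axis) by edgeR in the 4 other RNA groups (colours), with 95% intervals (bars); filled points have an adjusted p under 0.05. Entpd1 and P2ry13 are filled in all 4 groups, P2rx4, P2rx7 and Adora3 at PND8 only, and P2ry12 in none.

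P2ry12, the ADP receptor most used to mark microglia, stood at 966 and 962 CPM in adult. It was at 987 and 750.0 CPM in PND8 Ki67-negative and at 818 and 793 CPM in PND8 Ki67-positive cells. Repopulating cells held 819 and 958 CPM when Ki67-negative and 786 and 805 CPM when Ki67-positive. Both Ki67-positive groups and the repopulating Ki67-negative cells thus lay wholly below adult, the latter with an upper library close to it. PND8 Ki67-negative cells straddled adult. The log2 changes were -0.26 ± 0.12 (SE) in PND8 Ki67-positive cells and -0.28 ± 0.12 in the Ki67-positive cells of repopulation, with edgeR adjusted p = 0.0813 and 0.0691. The Ki67-negative groups had changes of -0.15 and -0.12 (edgeR adjusted p = 0.308 and 0.452). The call for P2ry12 turned on the setting: over 18 alternatives its adjusted p ran from 0.000126 to 0.259 at PND8 and from 0.000392 to 0.196 in repopulation, and 4 and 9 of them called it. DESeq2 and all 3 limma fits on TPM were among the 9. In these limma fits the median log2 change of all genes in this comparison was itself -0.083 to -0.074. In the reported fit it was -0.0097. The part of this shift in the calls was not tested.

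P2ry13, a second ADP receptor next to P2ry12, was at 735 and 719 CPM in adult and lower in all 4 other groups. Its values were 661 and 562 CPM in PND8 Ki67-negative and 562 and 579 CPM in PND8 Ki67-positive cells. In repopulating cells they were 543 and 625 CPM (Ki67-negative) and 501.2 and 527 CPM (Ki67-positive). No library of the 4 groups reached adult. The largest change was -0.50 ± 0.10 (SE) on the log2 scale, in Ki67-positive cells of repopulation (edgeR adjusted p = 0.000992). This call held without any 1 of the 10 libraries. The changes in PND8 Ki67-positive, PND8 Ki67-negative and repopulating Ki67-negative cells were -0.35, -0.25 and -0.32 (edgeR adjusted p = 0.00874, 0.0481 and 0.0196). Each of these 3 calls was lost without adult replicate 1, and the latter 2 also without adult replicate 2. Med12l, whose span holds P2ry13 on the other strand, was at 252 to 412 CPM. It was higher than adult in both Ki67-negative groups, by 0.43 at PND8 and 0.39 in repopulating cells (edgeR adjusted p = 0.0108 and 0.0221).

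P2ry6, the UDP receptor, was the only one of the 7 called higher than adult. It stood at 266 and 279 CPM in adult, 340 and 318 CPM in PND8 Ki67-negative and 312 and 329 CPM in PND8 Ki67-positive cells. Repopulating cells held 308 and 346 CPM when Ki67-negative and 303 and 310.1 CPM when Ki67-positive. Every library of the 4 groups exceeded both adult libraries. The log2 changes were 0.27, 0.24 and 0.26 in PND8 Ki67-negative, PND8 Ki67-positive and repopulating Ki67-negative cells (edgeR adjusted p = 0.0176, 0.0327 and 0.0246), and 0.17 in the Ki67-positive cells of repopulation (edgeR adjusted p = 0.117). None of the 3 calls held without adult replicate 1 or without adult replicate 2.

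P2rx4, an ATP-gated channel, was at 125 CPM in both adult libraries. It was at 84.6 and 96.2 CPM in PND8 Ki67-negative and at 92.3 and 92.8 CPM in PND8 Ki67-positive cells, all below adult. Repopulating cells held 129 and 140.4 CPM when Ki67-negative and 121 and 124 CPM when Ki67-positive. Its log2 changes at PND8 were -0.47 ± 0.09 (SE) and -0.44 ± 0.09 in Ki67-negative and Ki67-positive cells (edgeR adjusted p = 0.000972 and 0.00139), and both calls held without any 1 library. In repopulating cells the changes were 0.11 and -0.03 (edgeR adjusted p = 0.382 and 0.787), with 95% intervals from -0.09 to 0.30 and from -0.23 to 0.16.

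P2rx7, the ATP-gated channel linked to inflammasome activation, moved in the same direction by less. Adult libraries held 472 and 490.4 CPM, PND8 Ki67-negative libraries 421 and 377 CPM and PND8 Ki67-positive libraries 415 and 395 CPM. Repopulating cells stood at 497 and 514 CPM (Ki67-negative) and at 476 and 471 CPM (Ki67-positive), the latter overlapping adult. All 4 libraries of PND8 lay below the adult pair. The changes at PND8 were -0.27 and -0.25 in Ki67-negative and Ki67-positive cells (edgeR adjusted p = 0.0148 and 0.0215), and both calls were lost without adult replicate 1 or adult replicate 2. In repopulating cells they were 0.07 and -0.02 (edgeR adjusted p = 0.518 and 0.835).

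Adora3, the adenosine receptor, was at 180.0 and 187 CPM in adult, with the PND8 values given above wholly below it. Repopulating cells held 190.0 and 198 CPM when Ki67-negative and 184 and 169 CPM when Ki67-positive, around the adult level. The changes at PND8 were -0.58 ± 0.09 (SE) in Ki67-positive and -0.31 ± 0.09 in Ki67-negative cells (edgeR adjusted p = 0.000113 and 0.0103), against 0.08 and -0.06 in Ki67-negative and Ki67-positive repopulating cells (edgeR adjusted p = 0.504 and 0.627). The first call held without any 1 library, whereas the second was lost without adult replicate 2. Tmigd3, whose span holds all of Adora3, changed by -0.65 and -0.29 in the same PND8 groups (edgeR adjusted p = 0.000297 and 0.0417), and the 2 genes' reads cannot be separated here.

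Entpd1, the ectonucleotidase, showed the largest drop of the 7 that was shared by both contexts. It stood at 752 and 763 CPM in adult. PND8 libraries held 579.8 and 465 CPM (Ki67-negative) and 498 and 478 CPM (Ki67-positive). Repopulating libraries held 543 and 576 CPM (Ki67-negative) and 538 and 503 CPM (Ki67-positive). All 8 libraries fell below both adult libraries. The changes were -0.54 ± 0.10 (SE) and -0.63 ± 0.10 at PND8 and -0.44 ± 0.10 and -0.54 ± 0.10 in repopulating cells, each pair in the order Ki67-negative and Ki67-positive. Their edgeR adjusted p-values were 0.00073, 0.000172, 0.00381 and 0.000694. All 4 calls held in each of the 10 fits that left out 1 library and in every other setting.

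The contexts were then compared directly. Between repopulating and PND8 Ki67-positive cells edgeR called 2 members higher and 0 lower, where 16.7% of all genes were higher and 14.2% lower. Between the Ki67-negative cells it called 3 higher and 0 lower, where 18% of all genes were higher and 18.6% lower. Adora3 differed by 0.52 ± 0.09 (SE) in Ki67-positive and 0.39 ± 0.09 in Ki67-negative cells (edgeR adjusted p = 0.000521 and 0.00364). P2rx4 differed by 0.40 ± 0.09 and 0.57 ± 0.09 (edgeR adjusted p = 0.00462 and 0.000313). P2rx7 differed by 0.34 ± 0.08 in Ki67-negative cells (edgeR adjusted p = 0.00526) and by 0.22 ± 0.08 in Ki67-positive cells, which did not pass (edgeR adjusted p = 0.0513). The libraries of repopulating and PND8 cells did not overlap for these 3 genes in either comparison. In Ki67-positive cells Entpd1 (higher), P2ry13 and P2ry6 (both lower) did not overlap either, so 4 members were higher and 2 lower, where 35.2% of all genes were higher and 33.8% lower without overlap. In Ki67-negative cells 3 were higher and 0 lower (all genes: 29.5% and 34.8%). Without PND8 Ki67-negative replicate 1, P2ry12 and Entpd1 were called too in the Ki67-negative comparison, 5 calls in place of 3.

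One header code was shared by replicate 2 of PND8 and replicate 1 of repopulation. Within it, the log2 difference of single libraries was 0.50 and 0.32 for Adora3, 0.38 and 0.43 for P2rx4 and 0.27 and 0.40 for P2rx7, in Ki67-positive and Ki67-negative cells. Within that code Entpd1 differed by 0.17 and 0.23, against 0.09 and 0.10 in the fit over all libraries. P2ry13 differed by -0.21 and -0.05 there, P2ry6 by -0.12 and -0.05 and P2ry12 by -0.01 and 0.13. Tmem119 and Olfml3 also moved with this comparison, by 0.62 and 0.57 in Ki67-positive and by 0.58 and 0.49 in Ki67-negative cells (edgeR adjusted p = 0.000705, 0.00175, 0.00103 and 0.00391), and their part in it was not tested. The 9 microglia markers did not share 1 direction here. Csf1r, Siglech, Gpr34 and Aif1 also had higher means after repopulation in either Ki67 class, whereas Fcrls, Cx3cr1 and Sall1 had lower ones. The mean of Fcrls went from 663.2 CPM at PND8 to 314.5 CPM when Ki67-negative. When Ki67-positive it went from 633.3 to 307.5 CPM. The border macrophage and erythroid markers, high at PND8, moved with this comparison, as did the summed astrocyte markers, lower at PND8 in each Ki67 class. Their part in it was not tested.

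Over the 10 RNA libraries 6 of the 7 genes fell into 2 sets that varied together, described by Pearson's r of log2 CPM (n = 10 libraries, which share groups, header codes and adult controls). P2rx4, P2rx7 and Adora3 had r of 0.831 to 0.903 with each other. P2ry12, P2ry13 and Entpd1 had r of 0.81 to 0.861 with each other. P2ry6 had an r below 0 with each of the 6 others, from -0.15 (P2ry12) to -0.67 (Entpd1). Among the 12230 tested genes, those most alike were Cd53 and Fmnl3 for P2ry12 (r of 0.971 and 0.938), Ublcp1 and Pias2 for P2ry13 (0.959 and 0.957), and Nup155 and Ipo9 for P2ry6 (0.954 and 0.949). They were Igtp and Gsap for P2rx4 (0.981 and 0.977), Fgd3 and Tjp1 for P2rx7 (0.988 and 0.983), Tmigd3 and Tepsin for Adora3 (0.983 and 0.981), and Vsir and Polr3f for Entpd1 (0.991 and 0.986). The spread of P2ry12, P2ry6 and P2rx7 across the libraries was small: their SD of log2 CPM was at or under the 14.7th percentile of all tested genes. Their levels were at the 99.7th, 95.6th and 98.2nd percentile, and their spread was not compared with that of genes of like level.

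Other purinergic genes were read from 9 lists of receptors, enzymes, transporters, release channels and signalling partners, 70 genes in all, of which 45 were tested. Against adult, edgeR called 13 higher and 13 lower in PND8 Ki67-positive cells (all genes: 25.1% and 24.3%) and 17 and 10 in PND8 Ki67-negative cells (25.4% and 21.4%). In repopulating cells it called 13 higher and 12 lower (Ki67-positive; all genes: 23.9% and 21%) and 14 and 9 (Ki67-negative; 21.5% and 17.6%). Their medians were 0.01, -0.01, -0.00 and 0.14 on the log2 scale. Between Ki67-positive and Ki67-negative cells 1 was higher and 2 lower at PND8 (all genes: 2.75% and 3.15%) and 0 higher and 1 lower in repopulating cells (1.87% and 0.867%).

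Among the other receptors, P2rx1, an ATP-gated channel, was higher than adult in all 4 groups. It stood at 29.6 and 27.5 CPM in adult, 76.5 to 100.6 CPM at PND8 and 50.7 to 60.8 CPM in repopulating cells, by 1.76 and 1.48 in Ki67-negative and Ki67-positive cells of PND8 and by 1.00 and 0.85 in those of repopulation (edgeR adjusted p = 6.2e-08, 2.24e-07, 1.59e-05 and 5.43e-05). P2rx1 thus moved opposite to P2rx4 and P2rx7 at PND8. Platelets also express P2rx1, and their markers summed to 19.7 to 39.3 CPM at PND8, 43.0 to 54.2 in repopulating cells and 43.6 to 44.0 in adult. This sum was mostly Gp9, and the platelet markers did not all follow it. Pf4, also listed above as a border macrophage marker, had its highest means at PND8. They were 12.86 CPM when Ki67-negative and 6.203 CPM when Ki67-positive, against 2.023 CPM in adult. The part of platelets in the P2rx1 result was not tested.

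P2ry14, the receptor for UDP-glucose, had 0 and 2 counts in adult and 0, 2, 4 and 10 at PND8, but 51 to 87 in the 4 repopulating libraries. It was called higher in both repopulating groups than in adult and than at PND8 by edgeR, and no fold is given against adult or PND8 Ki67-negative cells, whose libraries held at most 2 counts. Adora1, the A1 adenosine receptor, was at 6.24 and 6.72 CPM in adult and 4.27 to 6.68 at PND8, and rose to 9.94 to 13.1 CPM in repopulating cells (0.92 and 0.68 against adult in Ki67-negative and Ki67-positive cells, edgeR adjusted p = 0.00771 and 0.0349). P2ry10b, an orphan relative of the P2Y receptors, fell below adult in all 4 groups, by 0.63 to 0.89 on the log2 scale. P2ry2, an ATP and UTP receptor, was low throughout, at 13 and 6 counts in adult and 21 to 38 elsewhere, and was called higher than adult in every group but PND8 Ki67-positive cells (edgeR adjusted p = 0.0566 there). P2rx6, a further ATP-gated subunit, had 0 to 27 counts. P2ry1 had 0 counts in all 10 libraries.

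**Figure D3:**
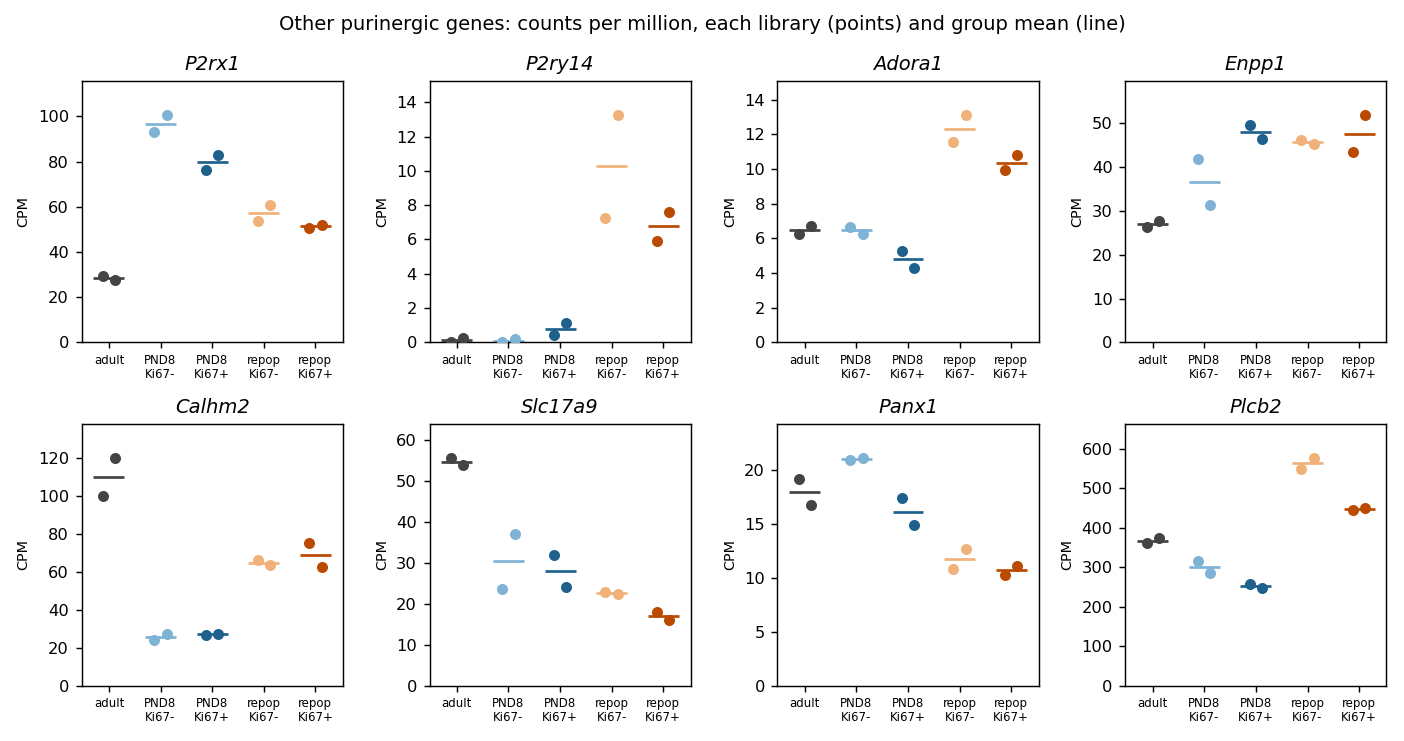
Normalised CPM (vertical axes, from 0) of 8 further purinergic genes in each RNA library (points), with group means (lines). P2ry14 and Adora1 are high in repopulating cells only, and P2rx1 is highest at PND8.

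Of the other surface enzymes, Enpp1, which cleaves ATP to AMP, was higher than adult in all 4 groups, at 26.2 and 27.6 CPM in adult and 31.4 to 51.8 CPM elsewhere, by 0.83 in PND8 Ki67-positive cells (edgeR adjusted p = 0.000442). It thus moved opposite to Entpd1. Cd38, which consumes NAD, had 9 and 12 counts in adult, 12 to 75 at PND8 and 0 in each of the 4 repopulating libraries. Nt5e, the CD73 enzyme that turns AMP into adenosine, reached at most 6 counts and was not tested. Bst1, a relative of Cd38, had at most 19 counts. Of the intracellular relatives of Entpd1, Entpd5 was higher in all 4 groups, by 0.36 to 0.64 on the log2 scale, and Entpd7 in both PND8 groups, by 0.28 and 0.47.

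Among genes of adenosine metabolism, Adk, Ahcy and Ada were called higher than adult in both PND8 groups by edgeR, and Slc29a3, a nucleoside transporter, and Pnp2, a purine nucleoside phosphorylase, lower in both. Adk, which phosphorylates adenosine, Ahcy, which releases it from S-adenosylhomocysteine, and Ada, which deaminates it, had 3.79 to 6.59, 2.43 to 3.17 and 2.31 to 2.93 CPM in adult. They had 16.1 to 23.0, 9.28 to 18.3 and 5.08 to 11.9 CPM at PND8. Of the 10 tested genes of nucleoside transport and adenosine metabolism, 4 were called higher and 2 lower in PND8 Ki67-positive cells (all genes: 25.1% and 24.3%) and 6 and 2 in PND8 Ki67-negative cells (25.4% and 21.4%) by edgeR. The counts were 2 and 2 in repopulating Ki67-positive (23.9% and 21%) and 3 and 2 in repopulating Ki67-negative cells (21.5% and 17.6%). Slc29a4, a nucleoside transporter, reached 45 and 22 counts in PND8 Ki67-negative cells and 0 to 5 in the other 8 libraries.

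Of 5 tested genes of ATP release, edgeR called 2 higher and 2 lower than adult in each PND8 group and 1 higher and 3 lower in each repopulating group. Of all genes, 25.1% were higher and 24.3% lower in PND8 Ki67-positive and 25.4% and 21.4% in PND8 Ki67-negative cells. These shares were 23.9% and 21% in repopulating Ki67-positive and 21.5% and 17.6% in repopulating Ki67-negative cells. Calhm2, a channel protein, went from 99.8 and 120 CPM in adult to 24.2 to 27.4 CPM at PND8 and 62.7 to 74.9 CPM in repopulating cells, by -2.08 and -0.76 on the log2 scale in the Ki67-negative cells of each (edgeR adjusted p = 5.45e-08 and 0.000301). Slc17a9, the vesicular nucleotide transporter, went from 55.6 and 54.0 CPM to 23.8 to 37.0 CPM and 16.0 to 22.9 CPM, and its change of -1.69 in repopulating Ki67-positive cells was the largest (edgeR adjusted p = 1.67e-05). Panx1, an ATP-release channel, was lower than adult in repopulating cells, at 10.3 to 12.6 CPM against 19.2 and 16.7, and was also lower there than at PND8 (-0.85 and -0.60 in Ki67-negative and Ki67-positive cells, edgeR adjusted p = 0.0028 and 0.0269). Gja1, a connexin gene that astrocytes also express, had 24 to 76 counts at PND8 and 0 to 6 elsewhere. Gfap, another of the astrocyte markers, had a mean of 3.23 and 2.01 CPM in Ki67-negative and Ki67-positive cells of PND8. It had 0.12 CPM in adult and 0.51 and 0.46 in repopulating cells. Of the other astrocyte markers, Slc1a2 also had its highest means at PND8. Aldh1l1, Slc1a3 and Aqp4 had lower means there than in repopulating cells of the same Ki67 class. For Aldh1l1 they were 1.35 and 0.45 CPM at PND8 against 9.23 and 5.12, in Ki67-negative and Ki67-positive cells. The part of astrocytes in the Gja1 counts was not tested.

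Of 10 tested signalling partners of P2Y12, edgeR called 3 higher and 4 lower than adult in PND8 Ki67-positive cells (all genes: 25.1% higher, 24.3% lower). The PND8 Ki67-negative group had 2 higher, 3 lower (all genes: 25.4%, 21.4%). After repopulation, 4 were higher, 2 lower when Ki67-positive (all genes: 23.9%, 21%). When Ki67-negative, 3 were higher, 1 lower (all genes: 21.5%, 17.6%). Gnai2, the inhibitory G protein subunit, and Itgb1, the integrin beta 1 chain, were higher in all 4 groups, by 0.28 to 0.52 and by 0.52 to 0.60 on the log2 scale. Plcb2, a phospholipase, was lower at PND8 and higher in repopulating cells, from 360 and 373 CPM in adult to 246 to 315 CPM and 446 to 575 CPM. Pik3cg, a phosphoinositide kinase, was lower than adult at PND8, with log2 changes of -0.77 and -0.63 in Ki67-negative and Ki67-positive cells (edgeR adjusted p = 8.49e-05 and 0.000362).

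Of 8 tested genes of P2X7 and the inflammasome, 0 were called higher than adult in any group by edgeR. Those called lower were 4, 2, 4 and 2 in PND8 Ki67-positive, PND8 Ki67-negative, repopulating Ki67-positive and repopulating Ki67-negative cells. Of all genes, 25.1%, 25.4%, 23.9% and 21.5% were higher in these groups and 24.3%, 21.4%, 21% and 17.6% lower. Pycard, the adaptor of the inflammasome, was at 118 and 110 CPM in adult and 46.5 to 68.3 CPM in every other library. Casp4, an inflammatory caspase, was at 28.9 and 23.8 CPM in adult, 11.1 to 16.4 CPM at PND8 and 22.4 to 33.3 CPM in repopulating cells. Il18, an interleukin that the inflammasome releases, was called in PND8 Ki67-positive cells, with a log2 change of -0.68 (edgeR adjusted p = 0.00162).

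H3K27ac was read as regions called in each library separately, so values are described with no test. All 7 genes had a called region within 1 kb of the start site in each of the 12 libraries, against 41.3% to 51.1% of all 20999 genes per library. Adult replicate 1 had the lowest share of its tags in called regions, 32.6%, against 45.5% to 69.7% in the other 11, and the fewest regions, 19572 against up to 30539. This library stands apart and enters every comparison with adult.

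P2ry12 carried one of the strongest regions of each library. The region over its start site ranked between 5 and 30 by tags among all regions of its list, from 0.0222% to 0.0996% of the list. In 11 libraries it began 2.3 to 2.69 kb before the start site and ended 3.53 to 5.23 kb after it, and so covered the P2ry12 sequence printed above. In repopulating replicate 1 it was called as 2 regions with a gap that holds that sequence, and the values are those of the region after the start site. It held 2533 and 3118 tags per 10000000 in adult, 2018 and 1404 in PND8 Ki67-negative and 1969 and 1902 in PND8 Ki67-positive cells. It held 2415 and 2617 in cuprizone Ki67-negative, 2000.2 and 2221 in cuprizone Ki67-positive and 1388 and 2267 in repopulating Ki67-positive cells. Its rank hence stayed near the top of every list while its tags were highest in adult replicate 2.

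**Figure D4:**
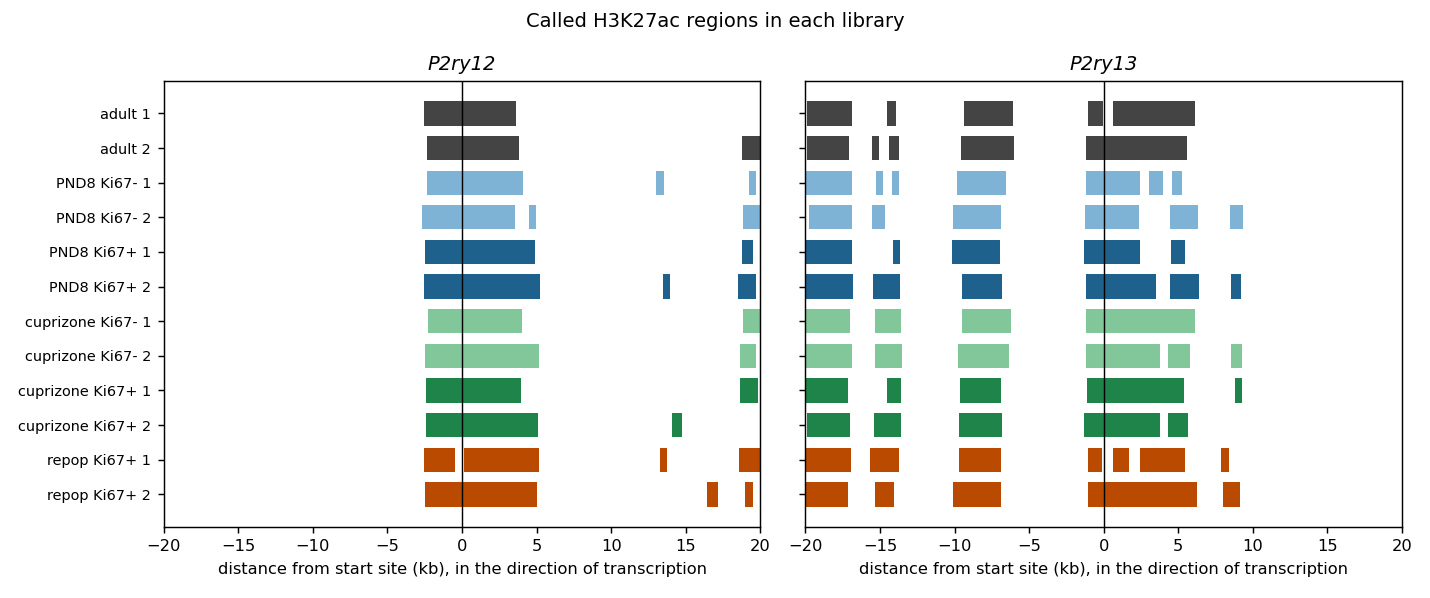
Called H3K27ac regions (bars) within 20 kb of the start sites of P2ry12 and P2ry13 in the 12 libraries (rows), by distance from the start site in kb in the direction of transcription. The P2ry12 block is whole in 11 libraries and split at the start site in repopulating replicate 1, and the P2ry13 block breaks 2.36 to 3.52 kb after the start site in the 4 PND8 libraries, with a further region beyond the gap, as in replicate 2 of both cuprizone groups.

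At P2ry13, the strongest region within 1 kb of the start site ended 6.13 and 5.56 kb after it in adult, 5.38 and 3.77 kb in cuprizone Ki67-positive and 6.14 and 3.78 kb in cuprizone Ki67-negative cells, but 2.36 to 3.52 kb after it in the 4 PND8 libraries. The stretch was split there rather than ended: each PND8 library had a further called region between 4446 and 6362 bases after the start site, and replicate 2 of both cuprizone groups had one between 4288 and 5752 bases. In repopulating cells it ended 6.27 kb after the start site in replicate 2 and 1.69 kb after it in replicate 1. In adult replicate 1 and repopulating replicate 1 it began after the start site, with a separate region before it. Its rank among all regions ranged from 4 (repopulating replicate 2) to 4935 (repopulating replicate 1), so this rank followed how the region was split. Ranks of the P2ry6 region were 64 to 178, within the top 0.739% of each list. Those of Entpd1 were 443 to 2052, of Adora3 1566 to 3197, of P2rx4 1958 to 4574 and of P2rx7 2576 to 4718.

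Within 20 kb on each side, the length covered by called regions was 11609 to 15770 bases at P2ry13, 9340 to 13232 at Adora3, 9740 to 12818 at P2ry6, 7025 to 10870 at Entpd1, 6163 to 9529 at P2ry12, 5559 to 7814 at P2rx7 and 2094 to 5583 at P2rx4. P2ry13, Adora3 and P2ry6 were at or above the 98.7th percentile of all genes' windows in every library, and P2rx4 lay between the 71.3rd and 86.3rd. Groups of 2 were then set side by side by covered length, beside the share of all 14045 windows with a region whose groups do not overlap. Against adult, the members higher and lower were 2 and 0 in PND8 Ki67-positive cells (all windows: 52.9% and 3.76%), 1 and 1 in PND8 Ki67-negative cells (43.9% and 5.45%), 1 and 0 in cuprizone Ki67-positive cells (38.6% and 3.42%), 3 and 0 in cuprizone Ki67-negative cells (31% and 2.47%) and 2 and 0 in repopulating cells (54.8% and 2.88%). Between Ki67-positive and Ki67-negative cells they were 1 and 0 at PND8 (25.4% and 8.24%) and 0 and 2 under cuprizone (12.8% and 8.89%). The shares higher than adult were large over all windows, and with 7 members these counts single out no direction for them.

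Summed tags gave another picture for the ADP receptors. At P2ry13 they were 3931 and 5602 in adult, 2498 and 2169 in PND8 Ki67-negative and 2187 and 2818 in PND8 Ki67-positive cells. They were 4545 and 4085 in cuprizone Ki67-negative, 3379 and 3393 in cuprizone Ki67-positive and 2570 and 4109 in repopulating Ki67-positive cells. All PND8 and cuprizone Ki67-positive libraries lay below both adult libraries. At P2ry12 the sums were 2533 and 3282 in adult, 2052 and 1561 in PND8 Ki67-negative, 1996 and 1999 in PND8 Ki67-positive, 2069 and 2247 in cuprizone Ki67-positive and 1914 and 2369 in repopulating cells, all lower than adult, and 2512 and 2699 in cuprizone Ki67-negative cells, which overlapped it.

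By summed tags, the members lower than adult were P2ry12 and P2ry13 in PND8 Ki67-positive cells (all windows: 4.25% lower, 54.9% higher), in PND8 Ki67-negative cells (5.98%, 47%) and in cuprizone Ki67-positive cells (2.21%, 40.5%). It was P2ry12 alone in repopulating cells (3.83%, 51%) and none in cuprizone Ki67-negative cells (0.57%, 38%), where P2rx4 was higher. No other member was higher than adult in these comparisons. Under cuprizone, 6 of the 7 were lower in Ki67-positive than in Ki67-negative cells and 0 higher (all windows: 13% lower, 6.52% higher), with P2rx4 the exception. At P2ry6 these sums were 3074 and 3429 against 3635 and 3888, at Entpd1 1391 and 1451 against 1904 and 2167, and at Adora3 2391 and 2716 against 3202 and 3216. The share of tags in regions was 51.9% and 65.3% in the Ki67-positive and 56.3% and 69.7% in the Ki67-negative cuprizone libraries, so it moved with this result. Its part was not tested. Between PND8 Ki67-positive and Ki67-negative cells no member differed without overlap (all windows: 5.03% lower, 34.9% higher).

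**Figure D5:**
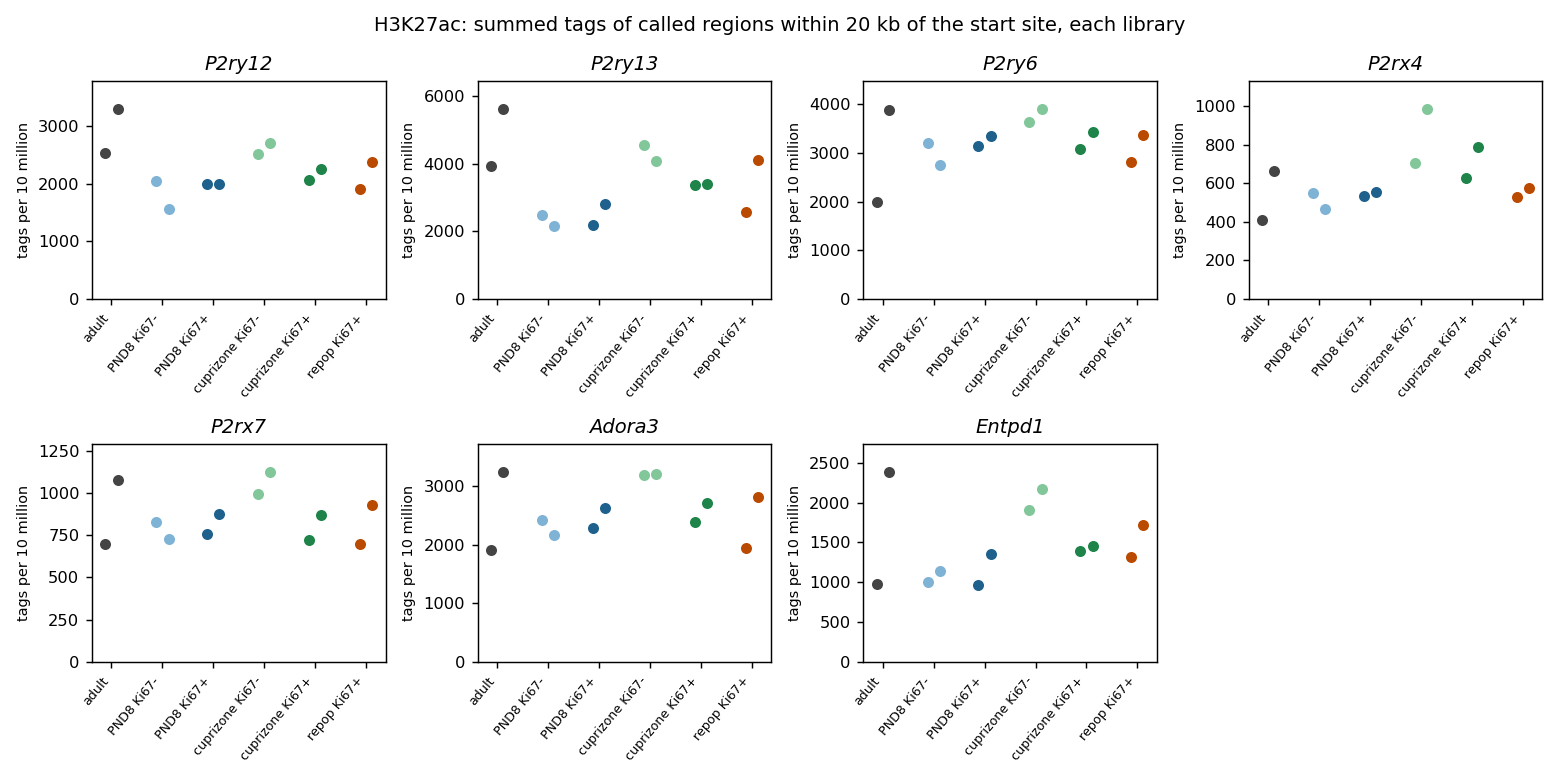
Summed tags per 10000000 (vertical axes, from 0) of called H3K27ac regions within 20 kb of each start site, for the 2 libraries of each of 6 groups (points). The highest library is adult replicate 2 at P2ry12 (3282) and P2ry13 (5602), while the 2 adult libraries differ widely at P2ry6 (1994 and 3870) and Entpd1 (982 and 2381).

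The other marks were present at nearly every start site. H3K4me3, a histone mark of promoters, had a peak within 1 kb of all 7 start sites in both adult libraries, with the most tags at P2ry13 (1832 and 1703 per 10000000) and the fewest at P2rx7 (482 and 405). Rpb2, a subunit of RNA polymerase II, had a peak at all 7 in adult replicate 1 and in the PND8 Ki67-positive library, again with the most tags at P2ry13 (346 and 280). In adult replicate 2 it had one at 6, not at P2ry12, in a library with the fewest Rpb2 peaks (10544 against 14550 and 31602). Open chromatin by ATAC-seq, with 1 library per group, had a peak at 6 start sites in adult and at 7 in PND8 and repopulating Ki67-positive cells. The start site without one in adult was again that of P2ry12, which had a peak of 75.9 tags per 10000000 at PND8 and of 100.2 in repopulating cells, with 7 peaks called within 20 kb in adult. With 1 library each this difference has no replicate check, and fewer ATAC-seq peaks were called in adult (71642) than at PND8 (75296) or in repopulation (95411).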

How the data were processed

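The members and gene lists were chosen with earlier results of these data known. The count table, per the file headers, was deposited with HOMER counts over mm10 exons, 1 transcript per gene and at most 3 tags per position; its strand setting is not given in the sources used here. The TPM values, per the file headers, came from the same tool. The peak signal was, per the file headers, normalised by the authors to 10000000 tags per library; regions were called in each library separately, and the authors' score served only as an alternative filter. The submitters' processing notes name STAR 2.7.0f, Bowtie2 2.3.4.1, HOMER 4.11 and DESeq2. All sample columns matched a label. Labels call RNA replicates independent. The p-values rest on the spread between libraries of the same group, estimated jointly over all 5 groups of 2 and moderated across genes. They do not rest on the groups compared alone. All 10 libraries entered 1 edgeR 4.0.16 quasi-likelihood fit in R 4.3.3 with TMM factors and filterByExpr (common biological coefficient of variation 0.0957), with Benjamini-Hochberg adjustment per comparison over 12230 genes and a threshold of 0.05, 9 comparisons in all. Alternatives used DESeq2 1.42.0 and limma 3.58.1. All 7 members were named; of each list, up to 4 called genes with the largest changes were named, with others as counts. H3K27ac windows were 20 kb each side, with at least 1 base of overlap. The fit and the window counts were checked on simulated data. Of the microglia marker list, 9 genes are reported here.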

Additional observations from a re-analysis of the deposited data

Results flagged for a closer look

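These results differed between contexts by a test of the difference itself (edgeR with Benjamini-Hochberg adjusted p-values, 2 libraries per group), each given as the log2 difference of repopulating over PND8 cells. In Ki67-positive cells the members were Adora3 at 0.52 and P2rx4 at 0.40, and in Ki67-negative cells Adora3 at 0.39, P2rx4 at 0.57 and P2rx7 at 0.34. Higher in repopulating cells among the other purinergic genes were Adora1 (1.11 in Ki67-positive and 0.93 in Ki67-negative cells), Calhm2 (1.35 and 1.32), Casp4 (1.18 and 0.95), Plcb2 (0.83 and 0.91) and Pik3cg (0.36 and 0.56). In Ki67-positive cells Il18 (0.48) was higher too, and so was P2ry14 (3.06), against 4 and 10 counts at PND8. Lower were P2rx1 (-0.63 and -0.77) and Panx1 (-0.60 and -0.85). In Ki67-positive cells Entpd7 (-0.30) and Slc17a9 (-0.73) were lower too, and so was Gja1 (-3.89), with 6 and 2 counts in repopulating cells. P2ry14 and Gja1 were called in the same directions in Ki67-negative cells, where 1 group held at most 3 counts a library and no value is given. The libraries on each side of these differences are the same, so the values are not independent of each other.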

How the results depend on the processing

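The Ki67 counts were 0 of 7 in every fit but PND8 with header codes as batches (1, Adora3) and with the replicate block. The same-numbered samples, which share a header code between Ki67 classes, correlated in their deviations at 0.338 (PND8) and 0.263 (repopulation) between these classes and at -0.01 to 0.10 otherwise. The labels name no pairing, and with only 2 numbers these values cannot settle whether the samples were paired. The reported fit treats them as unpaired. With the replicate block, 1 member (Adora3) was called at PND8, and all-gene calls rose from 721 to 1228 at PND8 and from 335 to 711 in repopulation.

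Fitting only the groups compared gave 3 members for PND8 Ki67-negative cells against adult and 4 for repopulating Ki67-positive cells against adult. Of 167 recomputed counts of members called, 156 stayed within 1.5 times. Of 1169 recomputed member changes, 31 lost and 25 gained the threshold, 38 reversed and the rest kept both sides. None of the reversed values was called. A header-code term could not be fitted against adult. With library sizes only, genes called for repopulating against PND8 cells were 1730 higher and 2218 lower (Ki67-positive; 2040 and 1738 in the reported fit) and 1829 and 3056 (Ki67-negative; 2203 and 2271), where the median of all genes moved to -0.13 from -0.04. With limma on TPM they were 1473 and 1820 in Ki67-positive cells.

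Reversed values by setting were as follows. For limma on TPM, P2rx7 between Ki67 classes at PND8 was -0.01144, -0.01152 and -0.01144 and P2ry12 between Ki67-negative contexts was -0.03068, -0.03072 and -0.03068. With library sizes only, P2ry12 between Ki67-negative contexts was -0.05202 and Entpd1 in the interaction 0.0121. P2ry12 between Ki67-positive contexts was 0.02673 with the header code, and P2ry6 between Ki67-negative contexts was 0.01392 with DESeq2 and 0.01587 with the groups compared only.

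Leaving out 1 library at a time, PND8 changes between Ki67 classes ran from -0.2649 to 0.1045 for P2ry12, -0.185 to 0.02296 for P2ry13, -0.05449 to 0.03371 for P2ry6, -0.05518 to 0.158 for P2rx4, -0.02578 to 0.1041 for P2rx7 and -0.2192 to 0.07205 for Entpd1. Against adult they ran from -0.3624 to 0.01044 for P2ry12 in PND8 Ki67-negative cells, and in repopulating Ki67-positive cells from -0.05086 to 0.004966 for P2rx7 and -0.1353 to 0.002276 for Adora3. Between Ki67-negative contexts they ran from -0.1298 to 0.244 for P2ry12, -0.1671 to 0.05498 for P2ry13, -0.08913 to 0.0765 for P2ry6 and -0.02831 to 0.267 for Entpd1. In the interaction they ran from -0.2626 to 0.08777 for P2ry12, -0.2051 to 0.01814 for P2ry13, -0.1454 to 0.02466 for P2ry6 and -0.1742 to 0.09766 for Entpd1. Members called ran from 3 to 7 and from 2 to 7 against adult in Ki67-positive and Ki67-negative cells of PND8, from 1 to 3 in repopulating Ki67-negative cells, and from 3 to 5 between Ki67-negative contexts.

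Of 152 recomputed H3K27ac values, 57 moved. In windows of 10 kb, members not overlapping were 2 higher (PND8 between Ki67 classes; 26.5% of all windows), 4 lower (cuprizone between Ki67 classes; 9.5%) and, lower than adult, 2, 3, 2 and 1 (PND8 Ki67-positive, PND8 Ki67-negative, cuprizone Ki67-positive, repopulating; 5.25%, 6.85%, 4.1% and 3.23%). In windows of 50 kb they were 0 higher (PND8 between Ki67 classes; 23.6%) and, higher than adult, 1, 2, 2 and 4 in the same 4 groups (56.2%, 49.5%, 41.2% and 57.9%), with 0 lower in PND8 Ki67-negative cells (3.48%). In the upper 50% of each list by score they were 0 higher and 1 lower between Ki67 classes at PND8 (19.1% and 9.05%), 2, 3 and 5 higher than adult in PND8 Ki67-negative, cuprizone Ki67-positive and cuprizone Ki67-negative cells (28.5%, 25% and 22.2%), and 1 lower in each of PND8 Ki67-positive, cuprizone Ki67-positive and repopulating cells (5.26%, 5.55% and 4.84%). With at least 50% of a region inside the window, 2 were higher than adult in PND8 Ki67-negative cells (43.8%). By summed tags the counts were 0 higher and 6 lower between Ki67 classes at PND8 and under cuprizone respectively (34.9% and 13%). Against adult by summed tags they were 0, 0, 0 and 0 higher (54.9%, 47%, 40.5% and 51%) and 2, 2, 2 and 1 lower (4.25%, 5.98%, 2.21% and 3.83%) in the first 4 groups named, and 1 higher in cuprizone Ki67-negative cells (38%).

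Leaving out 1 H3K27ac library, where a group of 1 overlaps less by construction, higher and lower counts ran from 1 to 6 and 0 to 4 between Ki67 classes at PND8 and from 0 to 2 and 2 to 6 under cuprizone. Against adult they ran from 2 to 5 and 0 to 2 (PND8 Ki67-positive), 1 to 5 and 1 to 3 (PND8 Ki67-negative), 1 to 7 and 0 to 3 (cuprizone Ki67-positive), 2 to 6 and 0 to 2 (repopulating), and from 3 to 7 higher in cuprizone Ki67-negative cells. The causes of these shifts were not tested. Having 2 libraries per group limits every comparison.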
